A study of Macaca mulatta with 60 samples.

Results

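Transcript levels in the right ventricle (RV) of 3 late gestation (LG) control fetuses were compared with those of 3 early gestation (EG) control fetuses, which are 6 of the 60 arrays of the series. The members were chosen by the sample labels, namely RV tissue, vehicle control and the gestational window. All fetuses were female rhesus monkeys (Macaca mulatta), a non-human primate. Dams of the EG controls received vehicle on fruit once a day from gestational day 50 to day 100 ± 2, and dams of the LG controls received it from day 100 ± 2 to term. The vehicle was ethanol without bisphenol A (BPA), and the exposed fetuses used for comparison came from dams given 400 µg/kg of deuterated BPA a day in the same windows, again with 3 fetuses in each window. EG fetuses were removed by caesarian section, whereas LG hearts were collected at necropsy after vaginal delivery. Gestational age, mode of delivery and dosing window therefore cannot be told apart in any late against early difference given here.

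Before birth the right ventricle works against the same arterial system as the left one, because the lungs carry little flow, and its muscle grows largely by division of cardiac myocytes. Towards term these cells leave the cell cycle, and the heart moves from glucose and lactate towards fatty acids as fuel. Myosin heavy chains set the speed of contraction. Myosin-6 (Myh6), the fast alpha form, is the main chain of the atria, and its share in the ventricles varies with species and stage.

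The array carried 26149 transcripts in the deposited values, given as log2 levels after robust multi-array averaging (RMA), and 12031 of them varied enough over the 12 RV arrays to be tested (interquartile range of at least 0.5). LFC is the LG minus EG difference in mean log2 level, so that an LFC of 1 is a 2-fold difference. A transcript was called at an LFC of at least 1 in size with an unadjusted limma p of at most 0.01. Only transcripts described in the study's own lists carry a name here, which is 582 of those measured. Of these, 140 were listed because they differed between BPA and control in RV itself, on arrays that include these same controls, and they are counted apart below, since their late minus early difference was partly fixed by that choice.

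In the late controls 379 transcripts were higher and 425 lower, which is 804 calls or 6.68% of those tested (3.15% higher and 3.53% lower). After Benjamini-Hochberg adjustment 238 (1.98%) had a limma adjusted p of at most 0.05, of which 81 were higher and 157 lower. An LFC of at least 1 in size was found for 2291 transcripts, 1134 higher and 1157 lower, and 1487 of them missed the p threshold. In 803 of those 1487 the 3 late fetuses did not overlap with the 3 early ones, beside 29.0% of all tested transcripts. The fold threshold itself favours transcripts without overlap. For the median transcript an LFC of 1.31 was needed to reach the p threshold, with quartiles of 1.15 and 1.56. This threshold, and each SE given with an LFC, rests on a variance per transcript pooled over all groups of the tissue, exposed fetuses included. Neither measures the spread of the late controls alone, for which the SD of each group is given.

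The late controls were less alike than the early ones. Over the tested transcripts the median SD among the 3 late controls was 0.563, against 0.331 among the 3 early controls, a ratio of 1.70, and the late SD was the larger one for 72.1% of transcripts. An SD above 1 was found for 14.0% of transcripts in the late controls and for 3.75% in the early controls. The exposed RV groups differed in the same direction, with median SDs of 0.661 (LG) and 0.264 (EG). In the left ventricle (LV) of the same control fetuses both windows were wide (0.707 late and 0.650 early), and in the left atrium (LA) and right atrium (RA) the late SD was the smaller one (0.447 against 0.475, and 0.419 against 0.514). In the biceps femoris muscle (BFM) the late SD was again the larger, at 0.378 against 0.219.

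Fetus 7 stood apart among the late controls. Its RV array correlated with those of the early controls at 0.890 to 0.898, compared with 0.946 to 0.950 for fetus 8 and 0.960 to 0.970 for fetus 9. The early controls correlated with each other at 0.969 to 0.977. Fetus 9 thus lay almost as close to the early controls as these lay to each other, fetus 8 in between, and fetus 7 far from them. Fetus 7 was the farthest of the 3 late controls from their median for 46.7% of transcripts, fetus 9 for 38.5% and fetus 8 for 14.8%. The array nearest to that of fetus 7 was from an LG BPA fetus, fetus 12 (correlation 0.948), which itself correlated with the early controls at only 0.832 to 0.849. Across the tested transcripts the deviation of fetus 7 from fetuses 8 and 9 correlated with the deviation of fetus 12 from fetuses 10 and 11 at 0.68. This value is a description across transcripts that share arrays and normalization.

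**Figure D1:**
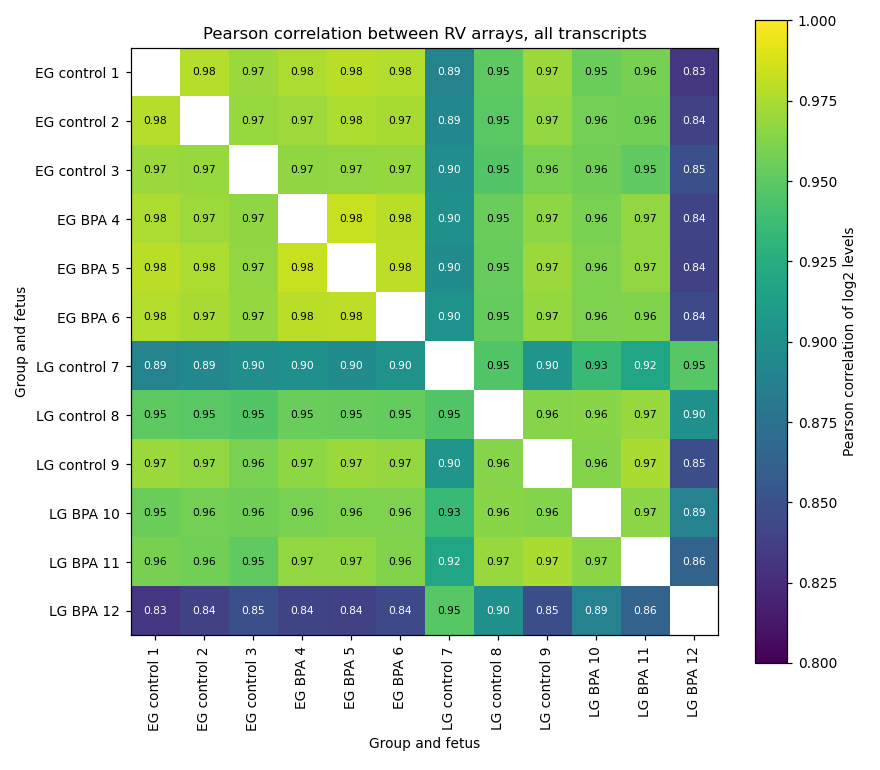
Pearson correlation of log2 levels between each pair of the 12 RV arrays over all transcripts, with fetuses ordered by group along both axes and the value printed in each cell. The arrays of LG control 7 and LG BPA 12 form dark rows and columns (0.83 to 0.90 with the EG arrays) and correlate with each other at 0.948.

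Leaving out 1 fetus at a time moved the count of calls in both directions. Without fetus 9, the late control closest to the early ones, 1473 transcripts were called (783 higher and 690 lower). Without fetus 7 the count was 503 (208 higher and 295 lower), of which 438 belonged to the 804, and without fetus 8 it was 475. Leaving out an early control gave 548 (fetus 1), 524 (fetus 2) and 513 (fetus 3). With the arrays of both fetus 7 and fetus 12 removed, 875 transcripts were called, of which 616 belonged to the 804. Of the 804, 300 were called whichever of the 6 controls was left out, 109 of them higher in LG. None of the 804 changed sign without fetus 7. The number with a limma adjusted p of at most 0.05, 238 with all fetuses, depended more on single fetuses. It was 20 without fetus 8, 28 without fetus 1, 63 without fetus 2, 71 without fetus 7 and 75 without fetus 3, but 589 without fetus 9.

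**Figure D2:**
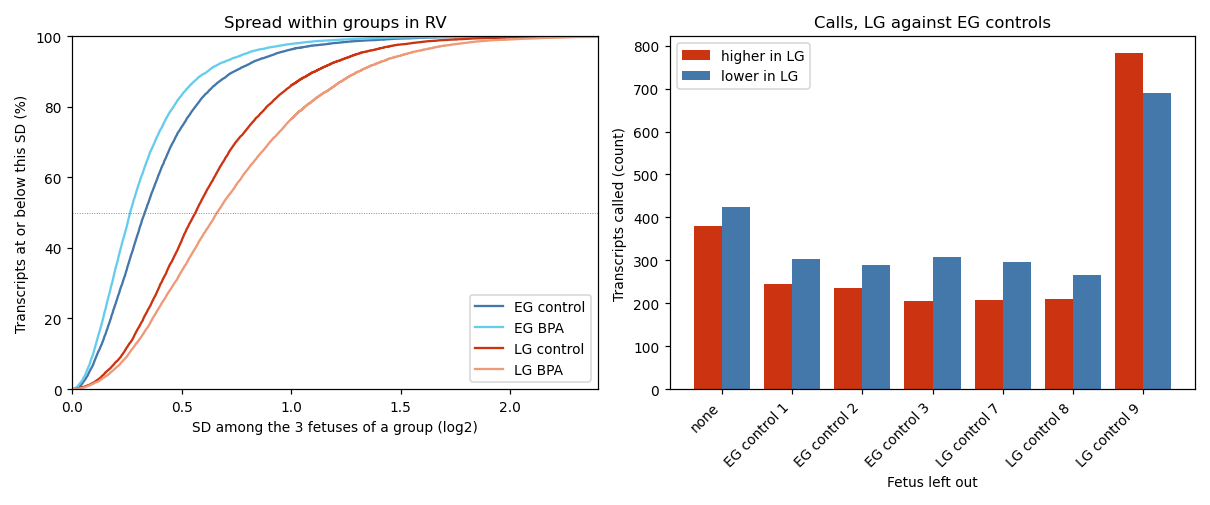
Left, cumulative share of the 12031 tested transcripts (%) against the SD of log2 level among the 3 fetuses of each RV group; right, number of transcripts called higher or lower in LG controls with no fetus left out and with each control fetus left out. The LG curves lie to the right of the EG curves (medians 0.563 and 0.661 against 0.331 and 0.264), and the bars rise to 783 and 690 without fetus 9.

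Transcripts of proteins that drive mitosis fell together. All 4 members of the cell division list had a negative LFC and 3 were called lower, beside 3.53% called lower over all tested transcripts, with a median LFC of -1.86 against 0.0931. M-phase inducer phosphatase 3, which activates the kinase that starts mitosis, had levels of 6.51, 6.10 and 6.69 in EG fetuses 1 to 3 and of 4.24, 4.41 and 4.53 in LG fetuses 7 to 9. The late fetuses lay close together and well below all early ones (LFC -2.04 ± 0.33 SE, n = 3 a side, limma adjusted p = 0.00844). These late levels lay near the 10th percentile of the control arrays (4.17 to 4.26), so near the floor of the array. How far the floor limits their spread was not tested. Centromere-associated protein E, a kinesin that attaches chromosomes to the spindle, was at 7.16, 6.94 and 7.23 in the early controls and at 4.96, 4.92 and 5.55 in the late ones, again without overlap (LFC -1.97 ± 0.33, limma adjusted p = 0.00993). The spindle checkpoint kinase TTK (dual specificity protein kinase TTK) was at 5.85, 6.31 and 4.94 against 4.62, 4.10 and 4.26. Here early fetus 3 lay just above late fetus 7, and the fall (LFC -1.37 ± 0.39) had a limma adjusted p of 0.0905 and was no longer called without fetus 1, 2 or 8.

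The 4 members were listed by the study for a BPA difference in LV of the late fetuses, on arrays of other tissue from these same late controls. The 3 called ones also differed between the windows in fetuses whose dams received BPA, which share no array with the controls. Their LG minus EG differences there were -1.65 ± 0.33 for M-phase inducer phosphatase 3, -2.25 ± 0.33 for centromere-associated protein E and -1.41 ± 0.39 for TTK, each called. The control and exposed differences came from the same fit, with a shared variance per transcript, filter, slide and normalization. Their calls are therefore not independent. Mean levels over the 4 list members ranged from 6.98 to 7.45 in the early controls and from 5.20 to 5.56 in the late controls, with fetus 7 (5.55) between fetuses 8 and 9. For this list, then, fetus 7 was not set apart from the other late controls. The late levels of M-phase inducer phosphatase 3 and TTK lay near the floor of the array, where a spread between fetuses may not show. Centromere-associated protein E was also called lower in all 4 other tissues of the control fetuses, with LFCs of -1.75 ± 0.41 in LV, -1.62 ± 0.40 in LA, -1.81 ± 0.33 in RA and -1.34 ± 0.23 in BFM, the LV value being part of the study's choice. M-phase inducer phosphatase 3 was called lower in LA (-1.72 ± 0.33), RA (-1.88 ± 0.44) and BFM (-1.03 ± 0.21) but not in LV (-0.80 ± 0.46). TTK was called lower in LV only (-1.77 ± 0.57), the tissue on which it was listed, and had LFCs of -0.77 ± 0.42 in LA, -0.85 ± 0.36 in RA and -0.52 ± 0.18 in BFM.

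The largest described rise was that of Pdk4, the kinase that switches off pyruvate dehydrogenase and so spares glucose when fat is burned. Its levels were 7.25, 5.84 and 6.98 in the early controls and 8.43, 11.34 and 10.89 in the late controls. Every late fetus lay above every early one, with fetus 7 the lowest of the late fetuses. The LFC was 3.53 ± 0.79 (SE; SD 0.75 early and 1.56 late, n = 3 each; limma adjusted p = 0.0356; exact two-sided permutation p = 0.1, the smallest that 3 against 3 allows). In the exposed fetuses the difference was 3.51 ± 0.79, and LG fetus 12 (8.57) was likewise the lowest of its group (11.01 and 11.59 in fetuses 10 and 11). Without fetus 7 the LFC of Pdk4 was 4.42, and it was called whichever control was left out. It was called higher in the other 4 tissues as well, at 3.47 ± 0.86 in LV, 2.59 ± 0.48 in LA, 2.54 ± 0.44 in RA and 2.86 ± 0.71 in BFM.

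The fuel metabolism list, Pdk4 included, had 10 measured and 8 tested transcripts, of which 2 were called higher and 0 lower, beside 6.68% called in either direction over all tested transcripts. Its median LFC was -0.11. The only call besides Pdk4 was that of diphosphoinositol polyphosphate phosphohydrolase 3-beta, an enzyme of inositol phosphate turnover, which rose with an LFC of 1.10 ± 0.37 that kept its call only when fetus 9 was left out. Fatty acid-binding protein, a carrier of fatty acids inside the cell, was at 11.31 to 11.50 in the early controls and at 12.09 to 12.25 in the late ones, without overlap, with an LFC of 0.80 ± 0.36 below the fold threshold. Hexokinase-2, which traps glucose in the cell, had an LFC of -0.30 ± 0.45. Gyg1 (glycogenin, the primer of glycogen synthesis) was at 9.67, 9.35 and 9.15 in the early controls and at 7.37, 8.74 and 9.56 in the late controls. The late values overlapped the early ones through fetus 9, and the LFC of -0.83 ± 0.57 missed both thresholds. These values are for the Gyg1 transcript ENSMMUT00000007773.

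Myh6 was the described transcript with the widest spread. Among early controls its levels were 5.51 (fetus 1), 6.77 (fetus 2) and 11.91 (fetus 3), and among late controls 6.47 (fetus 7), 14.23 (fetus 8) and 14.01 (fetus 9). The same low and high levels appeared in the exposed fetuses, with 12.77, 7.43 and 11.85 in EG fetuses 4 to 6 and 12.84, 13.68 and 7.63 in LG fetuses 10 to 12. Each RV group thus held both fetuses below 8 and fetuses above 11, and late control 7 lay between the lowest 2 early controls. The LFC in controls was 3.50 ± 2.16 (SD 3.39 early and 4.42 late; limma adjusted p = 0.351; exact two-sided permutation p = 0.3). Without fetus 7 it was 6.05 and called, and without each of the other controls it was not called. In LV of the same fetuses the LFC was 7.71 ± 1.47 (limma adjusted p = 0.196), a value that was part of the study's choice, since it listed Myh6 for a BPA difference in late LV, while in the atria it was 0.13 ± 0.14 (LA) and 0.21 ± 0.19 (RA). The RV minus LV difference of these LFCs was -4.21, with a limma adjusted p of 0.795, so that the LV rise was not shown to differ from that in RV.

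The level of Myh6 was low in fetuses 1, 2, 5, 7 and 12, so that by this transcript the tissue label cannot be checked evenly. Dehydrogenase/reductase SDR family member 7C, an enzyme of striated muscle, was high in every control, at 10.72 to 11.83 in the early and 11.76 to 12.33 in the late fetuses, and was left out by the filter on variation. The heart muscle and conduction list, both transcripts included, had 9 measured and 8 tested members, 0 calls in either direction, beside 6.68% over all tested transcripts, and a median LFC of 0.327. Thrb, a thyroid hormone receptor that acts on myosin genes, was at 7.37, 7.39 and 7.77 in the early controls against 7.66, 8.19 and 8.44 in the late ones (LFC 0.59 ± 0.66, exact two-sided permutation p = 0.2). Only late fetus 7 fell among the early values. The small conductance potassium channel 2, opened by calcium, which shortens the action potential, missed the fold threshold with an LFC of -0.98 ± 0.32, although its late levels (4.20 to 4.38) did not reach the early ones (4.92 to 5.50). Nuclear receptor subfamily 4 group A member 1, an early response gene, was at 7.55 to 8.15 in the early controls and at 7.03 to 11.35 in the late controls, with SDs of 0.34 and 2.31.

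**Figure D3:**
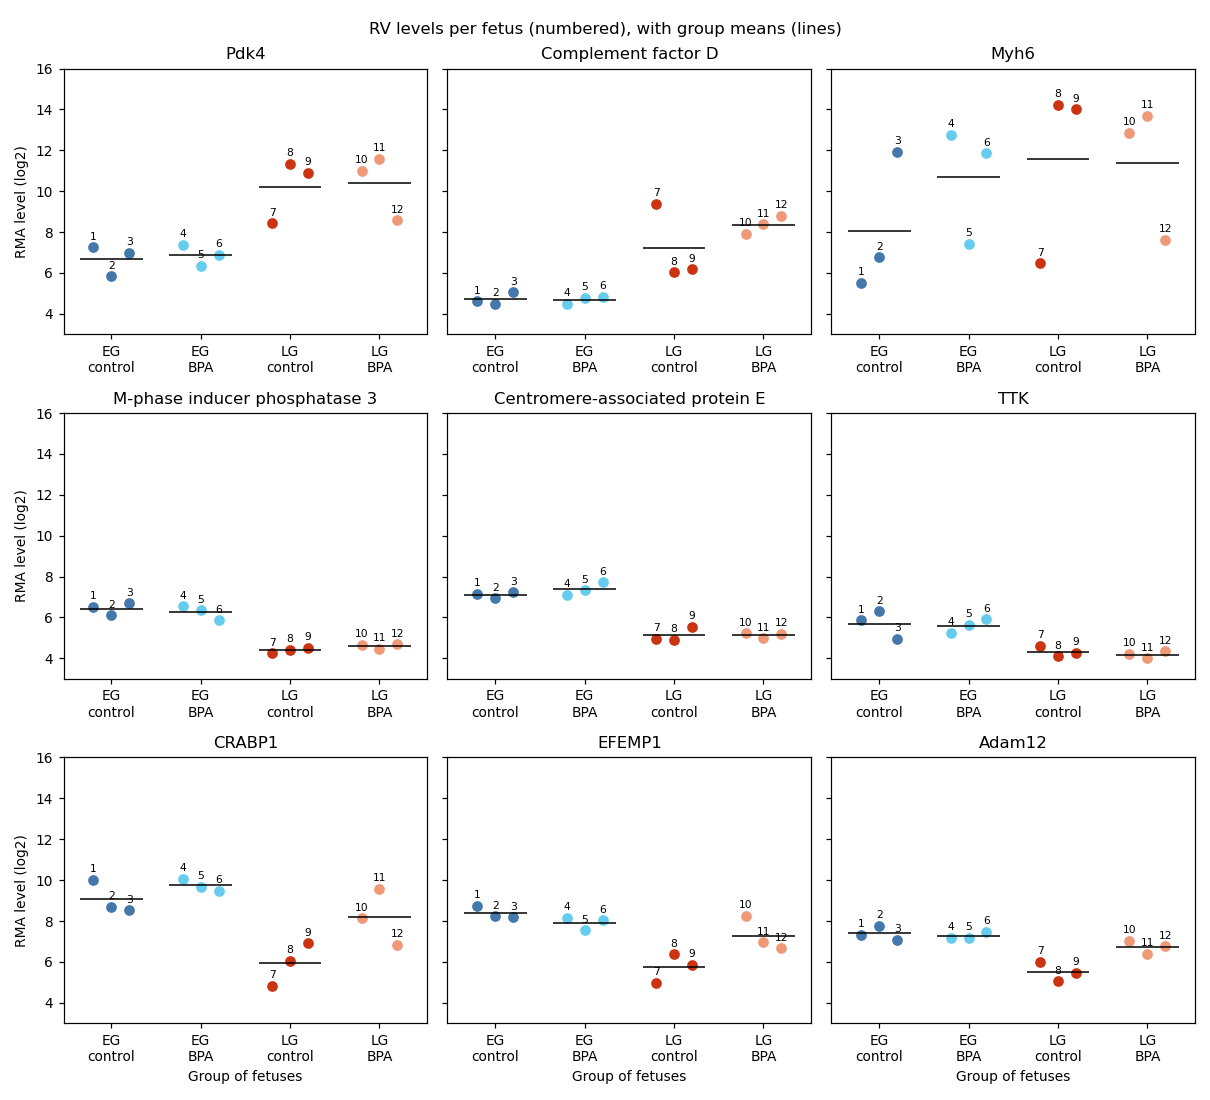
RMA levels (log2) of 9 transcripts in RV of each fetus, numbered and grouped by window and treatment, with lines at the group means. Pdk4 and complement factor D are higher and the 3 mitotic transcripts lower in both LG groups, whereas Myh6 splits each group into low and high fetuses, with fetuses 7 and 12 low.

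Complement factor D, a protease of the alternative complement pathway that fat cells also secrete, rose in the late controls. Its levels were 4.62, 4.50 and 5.05 in the early controls and 9.38, 6.04 and 6.19 in the late controls. All late values exceeded all early ones, and fetus 7 was more than 3 log2 units above the other late controls. The LFC was 2.48 ± 0.67 (limma adjusted p = 0.0723), and 1.39 without fetus 7, still called. In the exposed fetuses the difference was 3.67 ± 0.67, and in the other control tissues it was 4.15 ± 0.81 (LV), 1.63 ± 0.39 (LA), 3.08 ± 0.60 (RA) and 3.11 ± 0.51 (BFM), each called, the LA value being part of the study's choice. The RV minus LV difference of -1.67 was not called across the 24 arrays (limma adjusted p = 0.777), whereas with the difference taken within each fetus (replicate block) it was called, with a limma adjusted p of 0.52.

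Complement factor D was the 1 call among 18 measured leukocyte transcripts, of which 12 were tested, a share near the 6.68% over all tested transcripts. A positive LFC was found for 10 of the 12 (median 0.434) and for 53.8% of all tested transcripts. The mean level over the 18 was 5.25 to 5.29 in the early controls, 5.31 in fetus 8, 5.63 in fetus 9 and 5.92 in fetus 7. In the exposed fetuses it was 5.15 to 5.32 early and 5.68 to 6.20 late, highest in fetus 12. Its part in the late minus early differences was not tested, and fewer cells of a type and less RNA per cell cannot be told apart in tissue homogenates. Of these 18, 1 had a mean level below the 10th percentile of the arrays. The smooth muscle transcript Myosin-11 was at 6.82 to 8.07 in the early controls and at 7.57 to 8.60 in the late controls, highest in fetus 7, and was not called. The erythroid (1 tested of 2 measured), neural (5 of 9), interferon-related (3 of 4) and olfactory receptor (1 of 7) transcripts gave 0 calls in either direction. The neural mean level was 5.12 in fetus 7 and 4.49 to 4.71 in the other controls, and the erythroid mean 7.53 against 6.61 to 7.00. Among the exposed fetuses the neural mean was highest in fetus 12 (5.39) and the erythroid mean in fetus 10 (7.96). These means were not tested.

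Among the other proteins with a name that the study had not listed on RV, 2 fell and 1 rose. Those that fell were listed for a BPA difference in LV of the late fetuses. The one that rose was listed for a BPA difference in LV of the early fetuses. Both lists used other tissue of these same controls. NIPA-like protein 1, of a family of magnesium transporters, was at 8.26, 7.75 and 7.93 in the early controls and at 4.34, 4.27 and 7.08 in the late controls. Fetuses 7 and 8 were low and fetus 9 lay near the early range, without overlap (LFC -2.75 ± 0.65, limma adjusted p = 0.0436). The copper-transporting ATPase 2, which loads and exports copper, fell less (LFC -1.50 ± 0.49, limma adjusted p = 0.136) and was called only when fetus 7 was left out among the single omissions. Protein PMS2CL, a product of a copy of a mismatch repair gene that may share probes with its parent, was at 9.37 to 9.57 in the early controls and at 9.98 to 10.93 in the late ones, without overlap (LFC 1.07 ± 0.35, limma adjusted p = 0.139), and it too was called only without fetus 7 among the single omissions. It had no rise in the exposed fetuses (-0.52 ± 0.35). The calls listed on other tissues also held a protein-coding transcript with no further description (ENSMMUT00000044475, LFC -1.18 ± 0.38) and a mitochondrial tRNA (ENSMMUT00000038278, LFC 3.18 ± 0.92), both named here after their values were seen.

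A further set of falls came from proteins listed by the study for their BPA difference in late RV, so that their late control levels were low by choice and are given as a description. Cellular retinoic acid-binding protein 1 (CRABP1), which binds retinoic acid in embryonic cells, was at 10.03, 8.70 and 8.52 in the early controls and at 4.83, 6.07 and 6.91 in the late controls (LFC -3.15). The fibulin EFEMP1 (EGF-containing fibulin-like extracellular matrix protein 1), a matrix glycoprotein, was at 8.74, 8.23 and 8.18 against 4.98, 6.38 and 5.85 (LFC -2.65). The netrin receptor UNC5D, a guidance receptor, was at 8.59, 7.84 and 8.99 against 5.18, 6.44 and 6.40 (LFC -2.47). In each of the 3, all late controls lay below all early controls, with fetus 7 the lowest. Adam12, a metalloprotease and disintegrin that sheds growth factors, was at 7.33, 7.76 and 7.08 against 6.02, 5.06 and 5.47 (LFC -1.87), and there fetus 7 was the highest late control. BACH2, a transcription repressor, had an LFC of -1.42 with fetus 9 (8.02) close to the lowest early fetus (8.21), and was not called without fetus 1, 3, 7 or 8. In the exposed fetuses the differences were smaller, namely -1.57 for CRABP1, -0.63 for EFEMP1, -0.34 for UNC5D, -0.55 for Adam12 and -0.30 for BACH2.

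In the other tissues of the control fetuses the late minus early LFC of Adam12 was -1.88 ± 0.36 in LV, -0.91 ± 0.38 in LA, -1.13 ± 0.32 in RA and -2.51 ± 0.34 in BFM, of which the LV value was again part of the study's choice. UNC5D was lower in LV (-2.87 ± 0.74) and BFM (-1.61 ± 0.37), and EFEMP1 had LFCs between -0.20 and 0.18 in these 4 tissues. The matrix and secreted growth factor list as a whole had 10 measured and 6 tested members, of which 0 were called higher and 2 lower, these being Adam12 and EFEMP1, both listed on RV arrays, beside 3.53% called lower over all tested transcripts. The median LFC of the list was -0.842, against 0.0931 over all. Connective tissue growth factor, which promotes matrix deposition, had an LFC of -1.06 ± 0.58 that missed the p threshold.

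Small structural RNAs made up most of the described rises. Y RNAs are short RNAs bound by the Ro60 protein, U6 RNA is part of the spliceosome, and 7SK RNA holds back transcription elongation; each family has many near-identical genomic copies, and the array gave each small RNA 1 or 2 probes, so that copies cannot be told apart with certainty. Of 45 Y RNAs, 38 were tested, 16 were called higher and 0 lower, beside 3.15% called higher over all tested transcripts, with a median LFC of 1.02. All 16 came from the 20 Y RNAs that the study listed on RV arrays. Of the 25 listed on other tissues, 18 were tested and 0 were called, with a median LFC of 0.12, near the 0.0931 over all tested transcripts. Of 73 U6 RNAs, 65 were tested, 12 were called higher and 1 lower. Of the 44 listed on other tissues, 36 were tested, 2 were called higher and 1 lower, beside 6.68% called in either direction over all tested transcripts. The median LFC of these U6 RNAs was 0.555, above the 0.0931 over all tested transcripts.

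Among the Y and U6 RNAs, the largest called rises were all of transcripts listed on RV arrays. A Y RNA (ENSMMUT00000035850) was at 5.88, 5.66 and 4.33 in the early controls and at 9.98, 8.62 and 6.67 in the late controls. Another (ENSMMUT00000036355) was at 6.94, 6.05 and 5.00 against 10.10, 8.32 and 8.22. In both, early fetus 3 was the lowest and late fetus 7 the highest, and the groups did not overlap. The Y RNA ENSMMUT00000034209 was at 7.87, 7.83 and 6.25 against 10.72, 9.71 and 8.82. The Y RNA ENSMMUT00000034894 was at 7.34, 7.34 and 5.74 in the early controls, at 9.21, 9.21 and 8.84 in the early exposed fetuses, and at 9.74, 9.44 and 8.51 in the late controls. For the last of these the early controls were the only low group, since the late exposed fetuses were at 9.17, 9.03 and 8.94. A U6 RNA (ENSMMUT00000037759) behaved likewise, at 4.51, 3.74 and 4.07 in the early controls, 5.96, 6.07 and 5.02 in the early exposed, 6.90, 6.40 and 5.91 in the late controls and 6.11, 5.37 and 4.86 in the late exposed fetuses.

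Over all 140 transcripts listed on RV arrays, 42 were called higher and 12 lower in the late controls, with a median LFC of 0.774, while the median difference in the exposed fetuses was -0.184. Over the 442 described transcripts listed on other tissues, 247 were tested, 7 were called higher and 8 lower (6.07%, beside 6.68% over all transcripts tested), with medians of 0.15 in the controls and 0.25 in the exposed fetuses. This share was near that over all tested transcripts. Those listed on LV of the late fetuses gave 0 higher and 7 lower calls among 69 tested, and 1 of these 7 was Adam12, which belongs to the RV lists too.

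Few small RNAs fell. SNORD69, a guide for methylation of ribosomal RNA, was at 6.69, 7.98 and 7.40 in the early controls and at 5.35, 5.38 and 5.67 in the late controls, where the 3 fetuses were tight (LFC -1.89). A member of the SNORD113/SNORD114 family, encoded in an imprinted cluster, was at 6.49, 6.81 and 6.18 against 4.79, 4.24 and 5.24 (LFC -1.73). mml-mir-140, a microRNA abundant in cartilage, was at 5.23, 6.49 and 5.27 against 4.38, 3.90 and 3.87 (LFC -1.61), and was not called without fetus 2. All 3 were listed by the study on RV arrays. A U6 RNA (ENSMMUT00000048869, LFC -1.54 ± 0.48) and a 7SK RNA (ENSMMUT00000050226, LFC -1.39 ± 0.44), both listed on other tissues, were called lower with limma adjusted p of 0.123 each. The U6 RNA was not called without fetus 1, 7 or 8, and the 7SK RNA not without fetus 2, 3, 7 or 8.

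The other 6 RNA families had 14 calls among 143 tested transcripts, beside 6.68% over all tested transcripts. Of these calls 13 came from the 48 transcripts listed on RV arrays, and 1, the 7SK RNA that fell, from the 95 listed on other tissues. Signal recognition particle RNAs had 0 higher and 2 lower calls among 21 tested, ribosomal RNAs 1 higher and 0 lower among 19, 7SK RNAs 2 higher and 1 lower among 13, small nucleolar RNAs 1 higher and 3 lower among 34, microRNAs 2 higher and 2 lower among 46, and other spliceosomal RNAs 0 calls among 10. The highest median LFCs of these families were 0.564 (7SK RNAs) and 0.479 (ribosomal RNAs), and over the members listed on other tissues they were -0.12 and 0.211. The microRNAs mml-mir-205 and mml-mir-224 were left out by the filter on variation. mml-mir-205 was at 4.11 to 4.86 in the early controls and at 3.90 to 4.13 in the late controls, and mml-mir-224 at 3.54 to 4.45 against 3.60 to 3.92. The 10th percentile of these arrays lay at levels of 4.17 to 4.26, so that both were at or near the floor of the array.

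**Figure D4:**
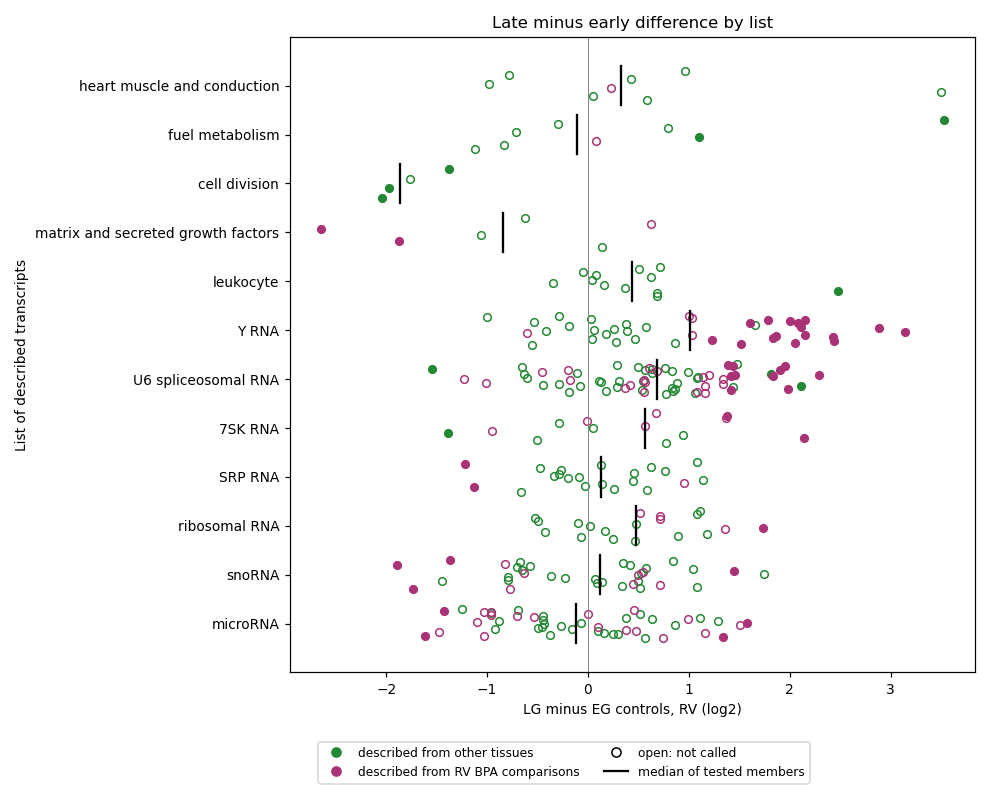
LFC of LG minus EG controls in RV for each tested member of 12 lists (1 circle a transcript, filled where called, bars at the list medians), coloured by whether the study listed it on RV BPA comparisons or on other tissues. The cell division members all lie below 0 (median -1.86), and the filled Y RNA circles on the right are all of the RV-listed kind.

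Transcripts with no description gave the largest differences of all that did not overlap. ENSMMUT00000007586 was at 9.52, 9.86 and 9.60 in the early controls and at 4.77, 5.36 and 7.52 in the late controls (LFC -3.78 ± 0.67, limma adjusted p = 0.0111). ENSMMUT00000012508 was at 9.00, 9.03 and 8.86 against 3.87, 5.19 and 7.26 (LFC -3.53 ± 0.64, limma adjusted p = 0.0127). In both, fetus 7 was the lowest and fetus 9 the highest late control, and the early fetuses lay close together. ENSMMUT00000039535 rose from 4.73, 5.20 and 4.85 to 7.57, 8.57 and 9.77 (LFC 3.71 ± 0.88, limma adjusted p = 0.0454). ENSMMUT00000033466 rose from 5.41, 5.78 and 5.51 to 9.36, 9.31 and 8.86, with the late fetuses close together (LFC 3.61 ± 0.54, limma adjusted p = 0.00612). Their differences in the exposed fetuses were -3.95, -4.12, 2.27 and 3.45 in the same order.

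The late minus early difference in the exposed fetuses was compared with that in the controls over all tested transcripts. In the exposed fetuses 781 transcripts (6.49%) were called, 300 higher and 481 lower. Both comparisons called 337 transcripts, all 337 in the same direction, which is 41.9% of the control calls and 43.1% of the exposed calls. The comparisons share no array, but they share the fit, the variance per transcript, the filter, the slide and the normalization. Their calls are therefore not independent. Of the 804 control calls, 752 (93.5%) had the same sign in the exposed fetuses, compared with 80.2% of all tested transcripts. Across transcripts the 2 sets of differences correlated at 0.72, and at 0.561 without the arrays of fetuses 7 and 12. When the difference between both age effects was tested, 62 transcripts (0.515%) were called, but by limma 0 had an adjusted p of at most 0.05, and 327 had an unadjusted p of at most 0.05.

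**Figure D5:**
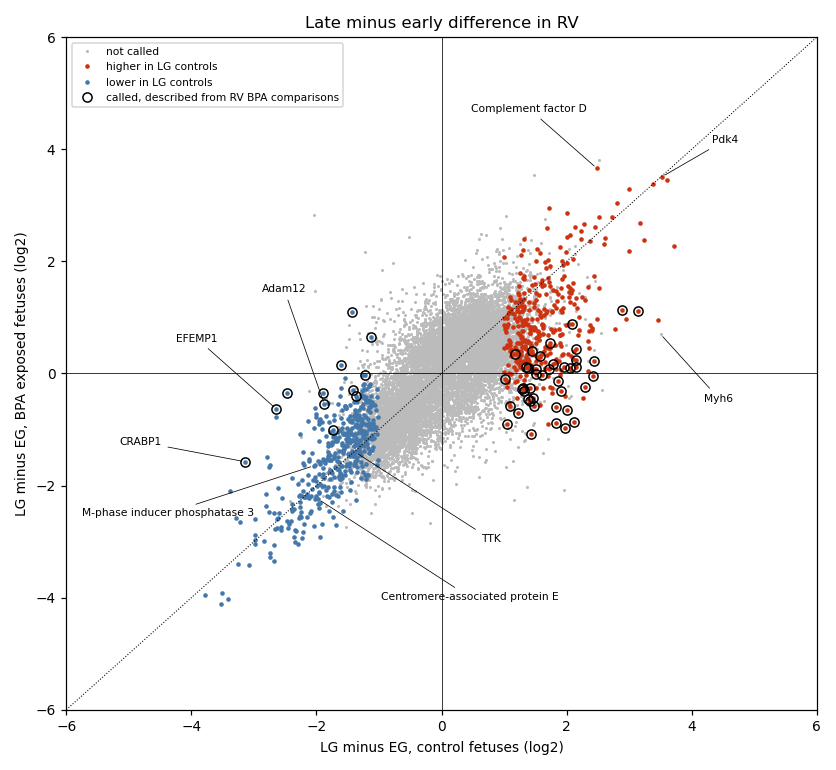
LG minus EG difference (log2) in control fetuses (horizontal) and in BPA exposed fetuses (vertical) for the 12031 tested transcripts, red and blue where called in controls and ringed where also described from RV BPA comparisons; the dotted line marks equal differences. The differences of both kinds correlate at 0.72 over all points, and 48 of the 54 ringed transcripts lie between -1 and 1 on the vertical axis (range -1.57 to 1.13).

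Set beside the other tissues of the same control fetuses, 406 of the 804 RV calls were also called in the same direction in at least 1 of them. LV shared 161 (20% of the RV calls and 31% of its own), LA 187 (23.3% and 34.9%), RA 191 (23.8% and 37.5%) and BFM 299 (37.2% and 13%). Over all transcripts tested in RV, those called in the tissue in the direction of their RV LFC were 2.91% for LV, 3.28% for LA, 3.19% for RA and 9.63% for BFM, and BFM had the most calls of its own, at 26.6% of the transcripts tested there. In all 4 other tissues 69 were called in the same direction, 15 higher and 54 lower, with Pdk4, complement factor D and centromere-associated protein E among them. The 398 shared with no other tissue leaned the other way, with 271 higher and 127 lower. Tissues were normalized separately and come from the same animals, and these counts therefore repeat fetuses and not independent samples.

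A test of the RV minus LV difference called 285 transcripts (2.37%), 242 higher and 43 lower in RV, of which 68 were among the 804. By limma 0 of the 285 had an adjusted p of at most 0.05, and 984 transcripts had an unadjusted p of at most 0.05. Without fetus 7 the count dropped to 83 (45 higher and 38 lower), and without fetus 9 it was 434. Among the named transcripts, SNORD69 (-2.15) and 2 Y RNAs (ENSMMUT00000034894, 2.27, and ENSMMUT00000036355, 2.59) were called, all 3 listed by the study on RV arrays. With the difference taken within each fetus (replicate block), SNORD69 and ENSMMUT00000034894 were no longer called, with a limma adjusted p of 0.52 each. With all fetuses no transcript was thus shown to differ between the ventricles in its late minus early change after adjustment, whereas 9 had a limma adjusted p of at most 0.05 without fetus 8 and 1 without fetus 9.

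The 3486 transcripts whose late and early controls did not overlap (29.0% of those tested, 1805 higher and 1681 lower) exceed the 804 calls, and 795 of the 804 were among them. Of the 804, 81 had a late SD above 1, compared with 558 of the 1487 that reached the fold threshold only. Over all tested transcripts the share was 14.0%. The p threshold is harder to reach where the SD is large. This contrast, and the lack of overlap among the calls, thus follow in part from the call rule. Myh6 was among those 558.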

How the data were processed

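Total RNA of each RV was copied into unamplified cDNA with oligo(dT) and random primers, labelled with Cy5 and hybridised to a 12-plex NimbleGen array designed from rhesus Ensembl transcripts and small RNAs (Mmul_1). All 12 RV arrays lay on 1 slide. The deposited values are log2 levels that the authors made by background correction, quantile normalization and median polish (RMA) within each tissue. Only these values were used here, and array intensities were not analysed. Quantile normalization gives every array of a tissue the same probe distribution, so a shift of most transcripts would not be seen. No spot background was at hand, and precision is limited by how many arrays there are. Genome positions are not given, because transcript identifiers were not paired with coordinates in the sources used here.

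After the study's methods, transcripts whose interquartile range across a tissue's 12 arrays was under 0.5 were dropped, the mean of each group was fitted in R 4.3.3 by limma 3.58.1 (functions lmFit, contrasts.fit and eBayes), and calls needed a size of LFC of 1 or more together with p of 0.01 or less before adjustment. Adjusted p-values are Benjamini-Hochberg values over all tested transcripts. Single transcripts also got an exact two-sided permutation test (20 splits). RV and LV were compared with 1 mean per group and tissue over 24 arrays. The replicate number in the labels was taken as the fetus, so RV and LV were paired by animal. Deviations from group means of the same fetus correlated at -0.0369 to 0.363 between RV and LV. For fetus 7 this correlation was 0.00482, against a median of 0.00494 with the other LV arrays, and its best LV match was fetus 10. The RV arrays of fetuses 1, 9, 10 and 12 also matched the LV array of another fetus best. For these fetuses the pairing thus rests on the labels. The fits were tested on simulated data.

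Names came from the study's lists of transcripts that differed with BPA, read from page images. Named here were the transcripts the study singled out, called members of the protein lists, and, among calls without overlap, the 10 largest rises and falls of described proteins, the 5 largest of small RNAs (leaving out, for both kinds, transcripts that the lists give as newly predicted, with no name of their own) and the 2 largest without description, which for rising proteins gave fewer than 10. Members and lists were chosen with earlier results of these data known. Each control fetus was a separate animal with 1 array per tissue. The values of 1 list member are not reported here.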

Additional observations from a re-analysis of the deposited data

Results flagged for a closer look

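The late minus early difference of 8 transcripts differed between groups by a test of the difference itself (limma, a difference of at least 1 in size with p of 0.01 or less before adjustment), and none passed after adjustment. Exposed minus control, the difference of both LFCs was 2.02 for EFEMP1, 2.13 for UNC5D, 1.77 for mml-mir-140, -1.59 for PMS2CL, -2.53 for the U6 RNA ENSMMUT00000037759 and -2.47 for the Y RNA ENSMMUT00000034894, with a limma adjusted p of 1 each. Of these 6, PMS2CL is the only one that the study did not list from the BPA differences in RV that make up this test. It was listed for a BPA difference in LV of the same early fetuses. RV minus LV in the controls, it was -2.15 for SNORD69, 2.27 for ENSMMUT00000034894 and 2.59 for the Y RNA ENSMMUT00000036355, with a limma adjusted p of 0.402 each. Paired within fetuses (replicate block), only ENSMMUT00000036355 of these 3 kept its call, with a limma adjusted p of 0.52.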

How the results depend on the processing

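The 804 control calls were 761 to 985 under 7 of the alternatives (no filter, trend and robust prior variance, further quantile normalization, median centring, removal of low values, group weights, fit of the 6 arrays alone) and 810 without the fold threshold. An interquartile range of at least 1 gave 392 calls, array weights 368 and an adjusted p of at most 0.05 without a fold threshold 238, a count that was 0 with array weights, 153 in the fit of the 6 arrays alone and 20 to 589 with 1 control left out. The array weights were estimated with a convergence warning and ranged from 0.0036 to 12.0. Leaving out 1 control gave 475 (without fetus 8) to 1473 (without fetus 9), and the count also moved by over 1.5 times without fetus 2 (524), 3 (513) or 7 (503). For the exposed fetuses (781 calls) the same settings gave 390, 1898 and 194, and leaving out 1 fetus gave 430 (fetus 4) to 1527 (fetus 11), with 431 without fetus 5 and 442 without fetus 6.

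The difference between both age effects (62 calls) became 129 with no filter, 21 with an interquartile range of at least 1, 174 with array weights, 0 by adjusted p, 35 to 115 with 1 fetus left out (fetuses 4 and 11; 110 without fetus 9 and 107 without fetus 12) and 117 without the RV arrays of fetuses 7 and 12. The RV minus LV difference (285 calls) became 637, 40 and 0 under the same filter and adjusted p settings, 83 (without fetus 7) to 434 (without fetus 9) with 1 fetus left out, with 179 without fetus 1 and 138 without fetus 3, and 122 without fetuses 7 and 12. Paired within fetuses (replicate block) it gave 208 calls, and the block added calls for complement factor D (-1.67) and the Y RNA ENSMMUT00000035850 (2.50) and ended those for SNORD69 and ENSMMUT00000034894, with a limma adjusted p of 0.52 for each of the 4. Described transcripts called (69) were 31 with an interquartile range of at least 1, 35 with array weights, 28 by adjusted p and 46 to 71 with 1 fetus left out. With 1 control left out, calls of the same contrast in other tissues were 380 to 498 for LV (520 with all fetuses), 361 to 527 for LA (536), 341 to 617 for RA (510), and for BFM 1974 to 2457 (2292). Without the filter the median SD was 0.402 in late and 0.249 in early controls.

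The LFC of none of the 31 tested named transcripts reversed under any alternative run. The cause of these movements was not tested. Analyses without fetuses 7 and 12, and the alternatives for the difference between both age effects, for described transcripts and for other tissues, were added after seeing the data. With 3 fetuses a side the exact test cannot go below 0.1.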
